A study of Homo sapiens with 2 samples.

Results

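This account describes 49 genes of DNA repair in the head and neck squamous carcinoma line FaDu and in a derivative labelled as resistant to cetuximab, an antibody against the epidermal growth factor receptor. The genes were chosen as well-known components of 7 repair pathways, and a transcript cluster (the gene-level unit of the Affymetrix Human Transcriptome Array 2.0) was assigned to a gene where the platform annotation gave that symbol alone. Of the 49 genes, 45 were measured, each by 1 cluster, among 22403 named genes in all. ERCC5 was annotated only to a cluster that it shares with the readthrough gene BIVM-ERCC5, and BRCA2, FANCA and FANCD2 were not analysed here. RNA of the untreated parental cells was hybridised to 1 array and RNA of the resistant cells to 1 array. The labels name no clone, no selection scheme, no drug concentration and no drug exposure of the resistant cells at harvest. With 1 array per line there is no spread between replicates and no test. Each difference below was computed as resistant minus parental on the deposited log2 scale, and a difference of 1 log2 unit, which is 2-fold, was taken as the size threshold. Where a sentence gives a pair of levels, the parental value comes first.

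DNA is repaired by pathways that are specialised for the kind of lesion. Homologous recombination copies a broken strand from the sister chromatid and works in S and G2 phase, whereas non-homologous end joining seals broken ends directly throughout the cell cycle. The Fanconi anaemia pathway unhooks crosslinks between strands, nucleotide excision repair removes bulky adducts, base excision repair replaces damaged bases, and mismatch repair corrects replication errors. Kinases that sense breaks and stalled forks halt the cell cycle meanwhile. Squamous carcinomas of the head and neck are commonly treated with radiation and platinum drugs, whose lesions these pathways handle, and inherited Fanconi anaemia is known for a high risk of this cancer.

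Both arrays carried the signal of an epithelial culture. The squamous keratin gene KRT5 stood at 17.25 in parental and 13.75 in resistant cells, and EPCAM, an epithelial adhesion molecule, at 12.61 and 13.98. KRT14, the partner keratin of KRT5, stood at 11.39 and 5.17, the latter just above the background level of 5.03. That level is the 95th percentile of 364 olfactory receptor genes, and it was 5.09 on the parental array. Of 5 fibroblast markers, 4 lay below it on both arrays, and COL1A1 stood at 5.22 and 5.26. Of 4 measured leukocyte markers, PTPRC, CD3E and CD14 lay below it on both arrays, whereas CD68, a lysosomal protein that is abundant in macrophages but not restricted to them, stood at 11.19 and 9.71. Of 4 endothelial markers, VWF and KDR lay below it on both arrays, CDH5 stood above it at 6.14 and 6.98, and PECAM1, at 3.74 and 5.17, was above it on the resistant array alone. The part of other cell types in the values of the repair genes was not tested. That both cultures are FaDu rests on their labels.

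DNA repair genes were mostly lower on the resistant array. Of the 45 genes, 32 had a lower value there and 13 a higher one, and the median difference was -0.53 log2 units, against -0.01 over all named genes. At least 2-fold lower were 12 genes (26.7%) and at least 2-fold higher 3 genes (6.67%). Over all named genes these shares were 7.42% lower and 8.33% higher. Many named genes are dim and can hardly differ, so the 6241 genes whose mean value lay between the 10th and the 90th percentile of the repair genes' means (7.74 to 12.59) serve as a closer comparison, and they are called comparable genes below. Among them 14.9% were lower by that size and 16.5% higher, with a median of 0.00 and 49.8% below zero. The repair genes' share of lower values was thus above that of comparable genes and their share of higher values below it. All 45 lay above the background level on both arrays. In bulk RNA, fewer cells expressing a gene and less of its RNA per cell cannot be told apart. The differences ranged from -1.93 for PARP2 to 1.28 for ERCC1.

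**Figure D1:**
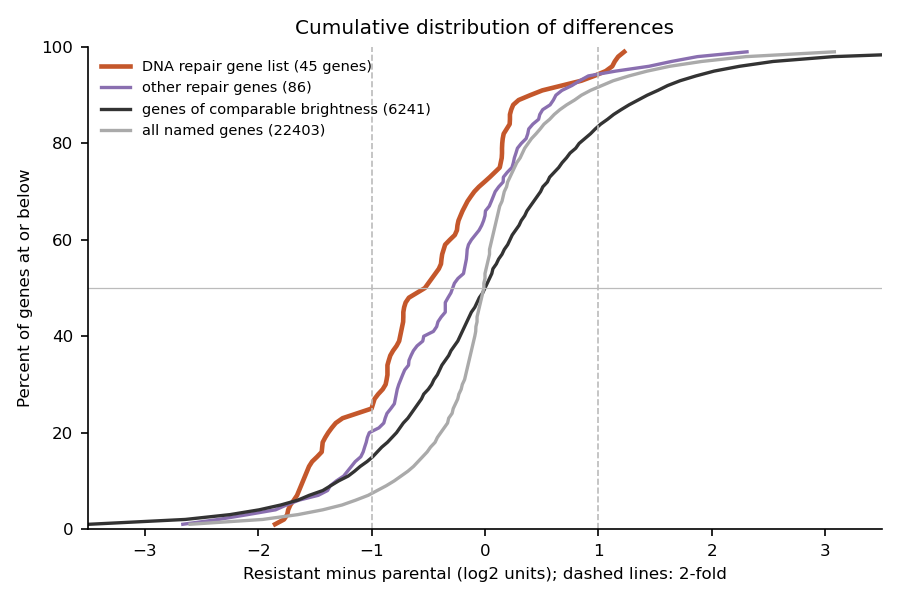
Percent of genes (vertical axis) at or below a given difference, resistant minus parental in log2 units (horizontal axis), for the 45 DNA repair genes, 86 other repair genes, 6241 comparable genes and 22403 named genes. The curve of the 45 genes crosses 50% at -0.53, to the left of the comparable genes, which cross at 0.00, and it lies to the left of them except at the lower extreme, where the 5th percentiles are -1.72 and -1.80.

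Just inside the threshold on the lower side was FANCF at exactly -1, and just outside it was FANCE at -0.97. On the higher side ERCC3 at 1.11 was the member nearest the threshold from within and LIG1 at 0.88 from without.

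**Figure D2:**
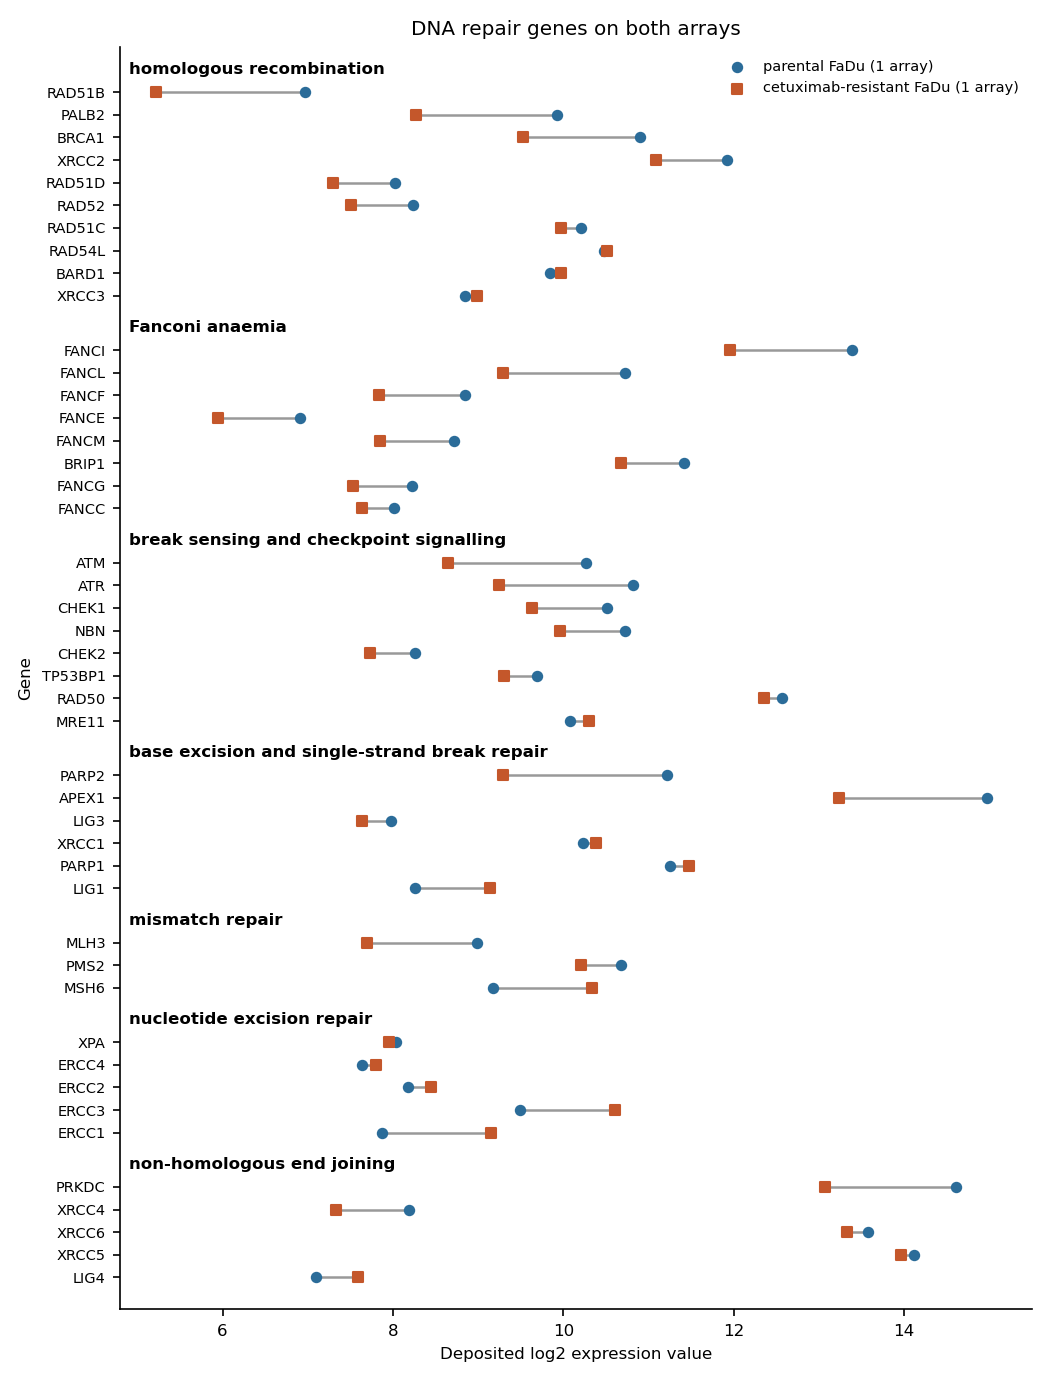
Deposited log2 expression value (horizontal axis) of each of the 45 DNA repair genes (vertical axis, grouped by pathway) on the parental array (circles) and on the resistant array (squares), 1 array each. The resistant square lies to the left in all 8 Fanconi anaemia genes and to the right in 4 of 5 nucleotide excision repair genes.

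Homologous recombination genes were lower or little different. Of 10 measured genes, 3 passed the threshold on the lower side and 0 on the higher side, with a median of -0.72. Among comparable genes 14.9% were lower by that size and 16.5% higher. The counts of this and the following pathways should be read beside these shares. BRCA1, whose product with its partner BARD1 forms a ubiquitin ligase that promotes resection of broken ends, stood at 10.90 in parental and 9.53 in resistant cells, a difference of -1.37 (2.58-fold lower). BARD1 itself stood at 9.84 and 9.97. The partners therefore differed by unlike amounts. PALB2, the bridge between BRCA1 and BRCA2, stood at 9.93 and 8.27, a difference of -1.66 (3.16-fold lower). RAD51B, RAD51C, RAD51D and XRCC2 encode the paralogue complex that helps the recombinase filament to form. RAD51B stood at 6.97 and 5.22, a difference of -1.75 (3.36-fold lower), and its resistant value was close to background. XRCC2 stood at 11.92 and 11.09 and RAD51D at 8.02 and 7.30. RAD51C, at 10.21 and 9.97, was the member of the complex with the smallest difference, -0.24. XRCC3, which pairs with RAD51C in a second complex, stood at 8.84 and 8.99. RAD52, a strand annealing protein, stood at 8.23 and 7.51. RAD54L, a motor protein of strand invasion, stood at 10.48 and 10.51, which is nearly the same value.

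All measured Fanconi anaemia genes were lower on the resistant array. Their median of -0.92 was the lowest of the 7 pathways, and 3 of 8 passed the 2-fold threshold. FANCI, a subunit of the clamp that the pathway ubiquitinates at crosslinks, stood at 13.39 in parental and 11.95 in resistant cells, a difference of -1.44 (2.71-fold lower). FANCL, the ubiquitin ligase of the core complex, stood at 10.72 and 9.29, a difference of -1.43 (2.69-fold lower). The ligase and its substrate thus differed by nearly the same amount. Core complex subunits followed with smaller differences: FANCF stood at 8.84 and 7.84 and FANCE at 6.91 and 5.94. FANCG, at 8.22 and 7.53, had a difference of -0.69, and FANCC, at 8.01 and 7.63, the smallest of the pathway, -0.38. FANCM, the translocase that brings the core complex to DNA, stood at 8.71 and 7.85. BRIP1, a helicase that binds BRCA1, stood at 11.42 and 10.68.

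Among the genes of break sensing and checkpoint signalling, both apical kinases were lower. ATM, activated by double-strand breaks, stood at 10.27 in parental and 8.65 in resistant cells, a difference of -1.62 (3.07-fold lower). ATR, activated by single-stranded DNA at stalled forks, stood at 10.82 and 9.24, a difference of -1.58 (2.99-fold lower). Their effector kinases differed less in the same direction, with CHEK1, the main target of ATR, at 10.51 and 9.63 and CHEK2, the main target of ATM, at 8.26 and 7.73. The complex of MRE11 (listed as MRE11A), RAD50 and NBN, which recruits ATM to breaks, was not uniform. NBN stood at 10.72 and 9.96, RAD50 at 12.56 and 12.36, and the nuclease gene MRE11 at 10.08 and 10.30, the only higher value of this group. TP53BP1, which restrains resection of ends, stood at 9.69 and 9.30. Over the 8 genes the median was -0.65, and 2 genes were lower by the threshold and 0 higher.

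Base excision and single-strand break repair was split. PARP2, a polymerase of ADP-ribose chains at breaks, had the lowest difference of all 45 genes, -1.93, with 11.22 in parental and 9.29 in resistant cells (3.81-fold lower). APEX1, the main endonuclease at sites that have lost their base, stood at 14.97 and 13.24, a difference of -1.73 (3.32-fold lower). PARP1, the more active of these PARP enzymes in cells, stood at 11.25 and 11.47, so the related enzymes differed in opposite directions. XRCC1, the scaffold of single-strand break repair, stood at 10.23 and 10.38, and its partner ligase LIG3 at 7.98 and 7.63. LIG1, the ligase of replication and long-patch repair, stood at 8.26 and 9.14, a difference of 0.88. The 6 genes had a median of -0.10.

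The 3 mismatch repair genes went apart. MSH6, a subunit of the mismatch recognition complex, stood at 9.17 in parental and 10.33 in resistant cells, a difference of 1.16 (2.23-fold higher). MLH3, a MutL homologue with a main role in meiosis, stood at 8.99 and 7.70, a difference of -1.29 (2.45-fold lower). PMS2, the endonuclease subunit of the main mitotic MutL complex, stood at 10.67 and 10.21.

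Nucleotide excision repair was the only one of the 7 pathways whose members had a median above zero, 0.26, where 2 of 5 genes were higher by the threshold and 0 lower. Without the genes of chromosomes 14 and 18, mismatch repair at 0.35 and base excision repair at 0.19 had medians above zero too. ERCC1, the non-catalytic subunit of the nuclease that cuts on the 5′ side of the lesion, stood at 7.87 in parental and 9.15 in resistant cells, a difference of 1.28 (2.43-fold higher). ERCC4, its catalytic partner, stood at 7.64 and 7.80, so the enzyme's subunits differed unequally. ERCC3 and ERCC2 are the helicase subunits of the transcription and repair factor TFIIH. ERCC3 stood at 9.49 and 10.60, a difference of 1.11 (2.16-fold higher), and ERCC2 at 8.18 and 8.44. XPA, which verifies damage, stood at 8.03 and 7.95.

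In non-homologous end joining, 1 of 5 genes passed the threshold. PRKDC, the catalytic subunit of DNA-dependent protein kinase, stood at 14.61 in parental and 13.07 in resistant cells, a difference of -1.54 (2.91-fold lower). The Ku subunits that recruit it to ends hardly differed, with XRCC5 at 14.11 and 13.96 and XRCC6 at 13.58 and 13.33. XRCC4 and LIG4, which act together to ligate ends, differed in opposite directions. XRCC4 stood at 8.19 and 7.33 and LIG4 at 7.10 and 7.59.

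**Figure D3:**
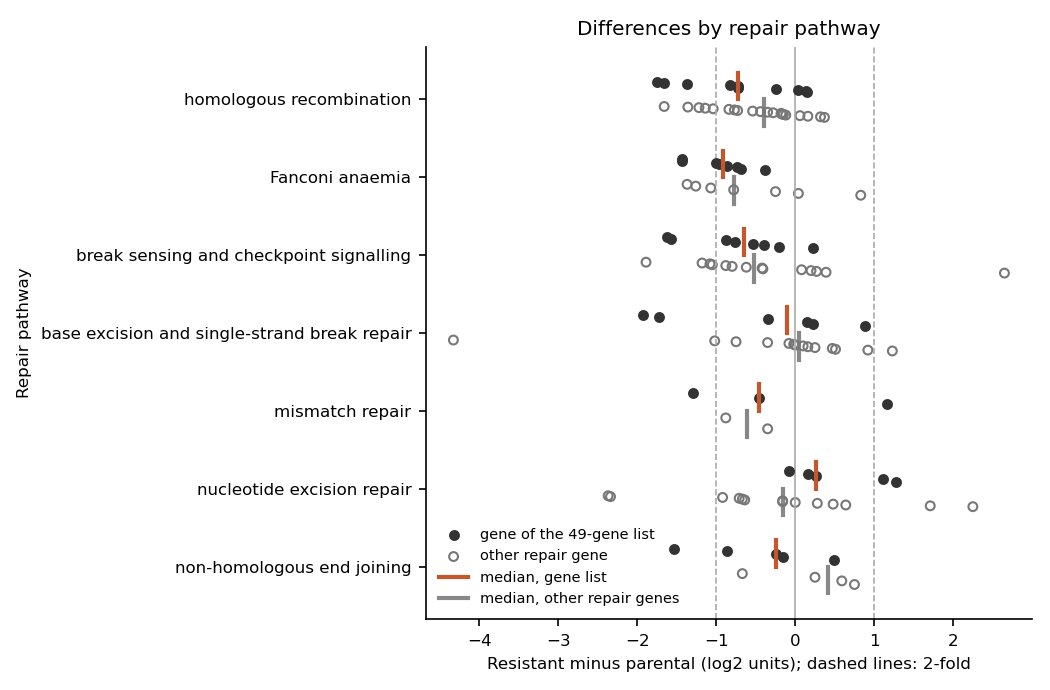
Difference in log2 units, resistant minus parental (horizontal axis), of the measured genes of the 49-gene list (filled points) and of other repair genes (open points) in 7 pathways, 1 point per gene, with the median of each as a bar and 2-fold differences dashed. Fanconi anaemia has the lowest bar of the gene list (-0.92) and nucleotide excision repair the highest (0.26).

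A second list held 95 repair genes, of which 86 were measured. Like the first list, it was chosen with earlier results of these data known. Its median difference was -0.29, with 18 genes (20.9%) past the threshold on the lower side and 5 (5.81%) on the higher side. Among comparable genes these shares were 14.9% and 16.5%, and the pathway counts below should be read beside them. Fanconi anaemia partners had the lowest pathway median of the second list, -0.78 over 7 genes with 3 at least 2-fold lower. Among these were FAAP100 (6.61 and 5.24), whose resistant value was close to background, and the nuclease scaffold gene SLX4 (7.77 and 6.51). With the median of comparable genes of the same chromosome subtracted, FAAP100 had -1.09 and SLX4 -0.90, the latter short of the threshold. Recombination genes had a median of -0.40, with 5 of 20 lower and 0 higher. BLM, a helicase that dissolves recombination intermediates, stood at 12.10 and 10.44, and MUS81, a nuclease of such intermediates, at 8.28 and 6.92. In signalling, 4 of 14 were lower and 1 higher. RAD9A, a subunit of the checkpoint clamp, stood at 10.38 and 8.49, whereas RNF168, a ubiquitin ligase at breaks, stood at 9.28 and 11.93, the largest higher value of this list.

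Single genes of the second list differed by more than any of the 45. TDP1, which removes trapped topoisomerase from DNA ends, stood at 11.18 in parental and 6.85 in resistant cells, a difference of -4.33. It lies on chromosome 14, where comparable genes had a median difference of -1.15. With that median subtracted, TDP1 had -3.18. Of 14 nucleotide excision repair genes, 2 were lower and 2 higher (14.3% each), with a median of -0.16. These shares were close to the 14.9% and 16.5% of comparable genes. DDB2, a damage sensor and p53 target, stood at 10.45 and 8.11 and the TFIIH gene GTF2H3 at 13.15 and 10.78. CETN2, a partner of the lesion sensor complex, stood at 8.85 and 11.10 and the TFIIH gene GTF2H1 at 9.96 and 11.67. The higher values of ERCC1 and ERCC3 were therefore not shared by most of the pathway. In translesion synthesis 2 of 9 were lower, HLTF (13.21 and 11.43) and the polymerase gene POLK (10.27 and 8.81), and 0 higher. The direct reversal gene ALKBH2 stood at 6.94 and 8.53. The other 9 genes past the threshold ranged from -1.22 to 1.23.

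Both lists together held 30 recombination genes, of which 8 were lower by the threshold and 0 higher, and 15 Fanconi anaemia genes, with 6 lower and 0 higher. In end joining, 1 of 9 genes (11.1%) was lower and 0 higher, beside 14.9% and 16.5% of comparable genes. The 4 end joining genes of the second list had a median of 0.42 and 3 values above zero, against -0.25 for the 5 of the first list. In base excision repair the medians were 0.05 over 14 genes of the second list and -0.10 over 6 of the first, and in mismatch repair -0.62 over 2 genes and -0.46 over 3.

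Many recombination and Fanconi anaemia genes are known to be transcribed mainly in S and G2 phase, so genes of the cell cycle are given beside them. Of 21 genes of G1/S and replication, 4 were at least 2-fold lower and 3 higher, with a median of -0.28. CCNE1, the gene of cyclin E, stood at 7.26 in parental and 10.67 in resistant cells, the thymidine kinase gene TK1 at 12.75 and 10.64, and the helicase subunit gene MCM4 at 12.80 and 11.29. Of 15 mitosis genes, 4 were at least 2-fold lower and 0 higher, with a median of -0.37. AURKB stood at 11.48 and 10.06, PRC1 at 13.43 and 12.02, and CCNB2 at 11.82 and 10.62. Of all 36 cell cycle genes, 26 (72.2%) were below zero, much like the 71.1% of the 45 repair genes. At least 2-fold lower were 22.2% and higher 8.33%, beside 14.9% and 16.5% of comparable genes. The part of cell cycle composition in the values of the repair genes was not tested.

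The repair genes lay on 17 chromosomes, as read from the prefix of the cluster ID, and some of their differences went with those of their chromosome. On chromosome 14, comparable genes had a median difference of -1.15. Of these 216 genes, 84.7% were below zero and 123 were at least 2-fold lower. Of the 6 repair genes there, 5 were lower (PARP2, RAD51B, APEX1, MLH3 and FANCM), 4 of them at least 2-fold, and XRCC3 was not. The median of the 6 was -1.51. On chromosome 19, comparable genes had a median of 0.47, and 29.8% of them were below zero. All 4 repair genes there (ERCC1, LIG1, ERCC2 and XRCC1) had higher values. On chromosome 2 the median of comparable genes was 0.41, and MSH6 and ERCC3, the other genes at least 2-fold higher, lie there. FANCL lies there as well, with its difference of -1.43. Of the 5 genes on chromosome 17 (BRCA1, RAD51C, RAD51D, BRIP1 and LIG3), 5 were lower. There the median of comparable genes was -0.28, and 61.4% of them were below zero. Without chromosome 14 the median of the remaining 39 genes was -0.39, and 8 were lower by the threshold and 3 higher. Copy number was not measured.

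**Figure D4:**
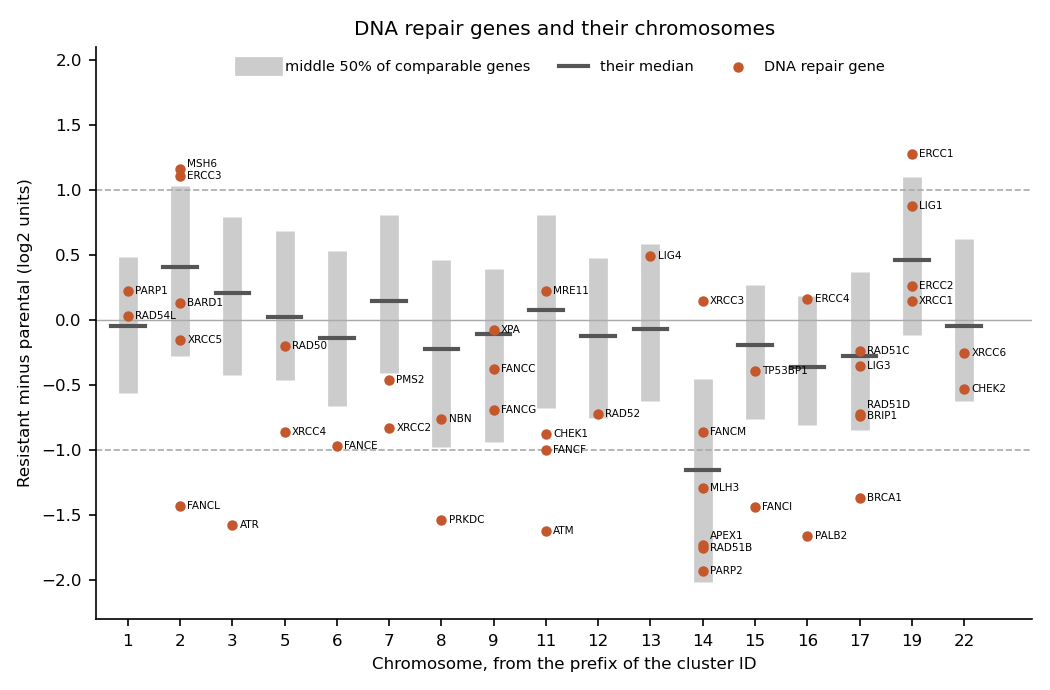
Difference in log2 units, resistant minus parental (vertical axis), of the 45 DNA repair genes (points) by chromosome (horizontal axis), over the middle 50% (grey bars) and the median (dark lines) of the comparable genes of that chromosome. On chromosome 14 the bar lies below zero and 5 of 6 points lie with it, whereas ATM, ATR, FANCL, FANCI, PALB2, PRKDC and BRCA1 are among the genes below the bars of their chromosomes.

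With the median of comparable genes of the same chromosome subtracted, an alternative added after the data were seen, 8 genes (17.8%) were at least 2-fold lower. These were BRCA1, PALB2, FANCF, FANCI, FANCL, ATM, ATR and PRKDC. By the same subtraction, 7.22% of all named genes, many of them dim, were at least 2-fold lower and 9.50% higher. The closer comparison, comparable genes, was not counted after the subtraction. Before it, 14.9% of comparable genes were at least 2-fold lower and 16.5% higher. PARP2 then had -0.78, RAD51B -0.60, APEX1 -0.58 and MLH3 -0.14, all short of the threshold. None of MSH6, ERCC1 and ERCC3 passed it (0.75, 0.82 and 0.70), and XRCC3, which stood out from its chromosome, did at 1.30.

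The nearest comparable genes, 10 on each side in the RefSeq order of GRCh38.p14 and fewer near chromosome ends, gave a closer view. Across the 45 genes, the difference of a gene and the median of its neighbours had a Pearson correlation of 0.62 and a Spearman correlation of 0.58. Without chromosome 14 these were 0.52 and 0.46 over 39 genes. This is a description across genes of the same pair of arrays, and close genes such as PARP2 and APEX1 or ERCC1 and ERCC2 share neighbours. The neighbours of PARP2 had a median of -1.50, those of APEX1 -1.74 and those of FANCM -1.55. Those of PRKDC, on chromosome 8, had -1.21. Neighbours of FANCI had a median of -0.79, those of ATR -0.60, those of BRCA1 -0.455 and those of PALB2 -0.445. These genes too were thus lower among neighbours that were mostly lower. XRCC3 had neighbours at 0.24, unlike the rest of chromosome 14. MSH6 and ERCC1 stood among higher neighbours, at 1.03 and 0.95. ATM differed most from its surroundings: it was lower while its neighbours had a median of 0.85. FANCF was likewise lower among neighbours at 0.53, and FANCL lower among neighbours at 0.03.

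**Figure D5:**
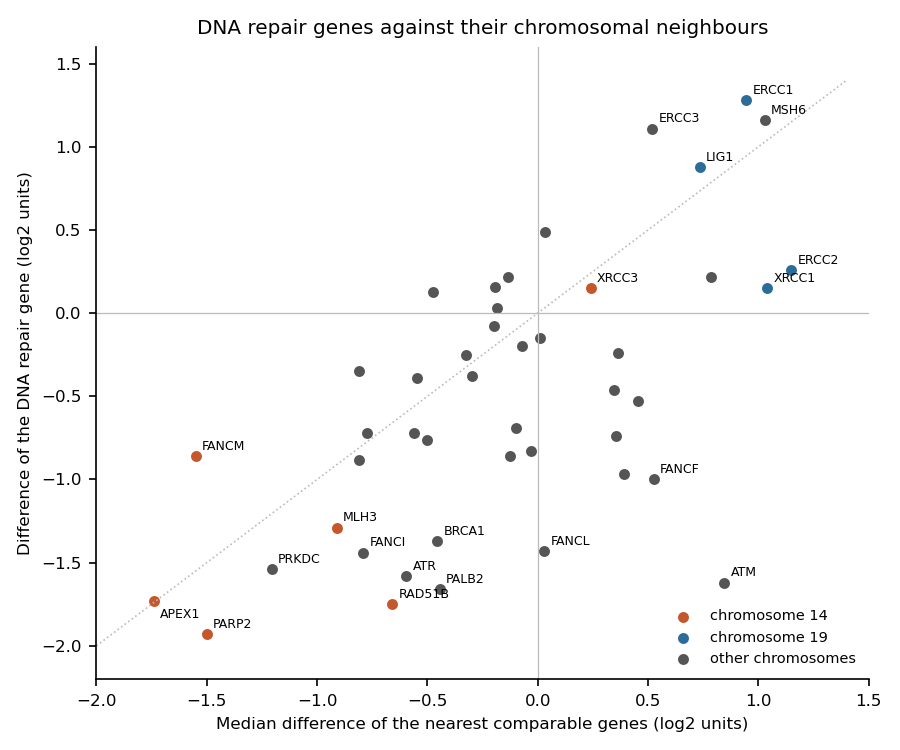
Difference of each of the 45 DNA repair genes (vertical axis) against the median difference of its nearest comparable genes on the chromosome (horizontal axis), both in log2 units, with the dotted line marking equal values. APEX1 and PARP2 lie near the line at its lower end and MSH6 and ERCC1 near it at its upper end, whereas ATM lies far below it.

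Several repair genes share a promoter region with a gene that is read in the opposite direction. Start sites of RefSeq (GRCh38.p14) were found for 41 of the 45 genes, and 11 of these had a measured neighbour starting head to head within 1000 bases, in 12 pairs. In 7 of the 12 pairs both genes differed in the same direction. OSGEP, which starts 414 bases from APEX1, stood at 8.89 in parental and 7.39 in resistant cells, a difference of -1.50 beside -1.73 for APEX1. NBR2, 193 bases from BRCA1, stood at 10.11 and 9.15, a difference of -0.96 beside -1.37. NBR1 starts 82 bases from another RefSeq start of BRCA1, far from the gene's usual one that NBR2 faces. It stood at 9.30 and 9.31, which is nearly the same value. DCTN5, 156 bases from PALB2, stood at 12.50 and 11.85, a difference of -0.65 beside -1.66. NPAT, 429 bases from ATM, stood at 10.42 and 10.34, a difference of -0.08 beside -1.62, so in this pair only ATM was 2-fold lower. MCM4, named above, is the next protein-coding gene to PRKDC in RefSeq order, and the genes had nearly equal differences, -1.51 and -1.54. Around APEX1 and PRKDC the nearest comparable genes were also lower, with the medians of -1.74 and -1.21 given above.

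The sequences below are the 250 bases upstream of the start of these 4 genes that were at least 2-fold lower and face a measured neighbour, printed 5′ to 3′ on the strand of the repair gene. Capitals mark the CCAAT box, a common element of such promoters, or its reverse complement. They lie at chr17:43125365-43125614 on the minus strand for BRCA1, chr16:23641311-23641560 on the minus strand for PALB2, chr11:108222817-108223066 on the plus strand for ATM and chr14:20454976-20455225 on the plus strand for APEX1.
BRCA1: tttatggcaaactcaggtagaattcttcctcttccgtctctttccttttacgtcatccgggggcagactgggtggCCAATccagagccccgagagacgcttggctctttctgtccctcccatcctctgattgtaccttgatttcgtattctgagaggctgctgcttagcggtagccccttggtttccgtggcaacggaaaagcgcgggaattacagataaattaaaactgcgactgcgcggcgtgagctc
PALB2: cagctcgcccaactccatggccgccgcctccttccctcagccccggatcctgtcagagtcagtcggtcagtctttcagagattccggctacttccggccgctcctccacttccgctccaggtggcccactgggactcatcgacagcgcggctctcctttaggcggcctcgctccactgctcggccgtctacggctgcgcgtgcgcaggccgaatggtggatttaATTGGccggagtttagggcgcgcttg
ATM: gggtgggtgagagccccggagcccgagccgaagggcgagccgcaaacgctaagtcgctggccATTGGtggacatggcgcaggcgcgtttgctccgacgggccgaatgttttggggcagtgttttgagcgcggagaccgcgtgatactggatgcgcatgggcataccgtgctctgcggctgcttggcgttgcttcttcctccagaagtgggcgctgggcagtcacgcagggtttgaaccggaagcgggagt
APEX1: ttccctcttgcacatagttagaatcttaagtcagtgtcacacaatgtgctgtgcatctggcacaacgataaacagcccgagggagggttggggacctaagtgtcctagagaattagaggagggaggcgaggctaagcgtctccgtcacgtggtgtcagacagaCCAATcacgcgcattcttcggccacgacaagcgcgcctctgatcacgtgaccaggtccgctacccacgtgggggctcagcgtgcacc

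Each of these windows held the box once. Over the 41 genes with a window, 48.8% held CCAAT on either strand, against 42.2% of comparable genes and 37.0% of all genes with a window. The letters TTTNNCGC, which match many binding sites of the cell cycle factor E2F, were found in 12.2% of the 41 genes, 12.7% of comparable genes and 7.15% of all. The letters TTTGAA, the core of an element of genes expressed in G2 and mitosis, were found in 12.2%, 12.6% and 16.1%. Matches of different motifs may overlap. Among the 10 genes at least 2-fold lower with a window, 5 held CCAAT, 0 held TTTNNCGC and 1 held TTTGAA. The shares of the repair genes were thus close to those of comparable genes.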

How the data were processed

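Per the submitters' processing notes, values were made with Affymetrix Expression Console. The labels and files record neither version nor algorithm nor genome build. The authors deposited 1 log2 value per transcript cluster and array, for 67528 clusters. The log2 unit was inferred from the values. The arrays' medians were 4.79 and 4.72. No depth or detection call accompanies the values, so the number of arrays, 1 per line, limits the precision.

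Clusters with 1 annotated symbol (23781) were named, and symbols were updated through gene identifiers to RefSeq of GRCh38.p14 for 21497. Of several clusters of a gene the one with the highest mean was kept, and chromosome Y was left out. RefSeq coordinates were used for the order of genes and for promoter windows. Differences were computed with pandas 2.3.3 and numpy 2.4.6 under Python 3.11.15, and the loess alternative with statsmodels 0.14.6 (span 0.3). The counting was tested on planted differences. Members, lists, thresholds and alternatives were chosen with earlier results of these data known. Every measured member is named. Of the other repair genes past 2-fold and above background, the 14 largest differences are named, and of each cell cycle list the 3 largest.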

Additional observations from a re-analysis of the deposited data

How the results depend on the processing

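Recomputed were the counts, medians and named genes under 11 alternatives and 1 added after the data were seen. Medians were taken as moved past 0.1 log2 units and counts and shares past 1.5 times. Centring each array, the loess correction, the mean of all clusters and raising values to background moved no count or median past these limits. FANCF, at -1, missed the 2-fold threshold after centring, quantile normalisation, loess correction and subtraction of the chromosome median of named genes. Quantile normalisation moved the medians of Fanconi anaemia to -0.82 and of nucleotide excision repair to 0.37.

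At 1.5-fold, 22 members were lower, 33 other repair genes lower and 11 higher, and 14.03% of named genes lower and 14.6% higher. At 3-fold, 5 members were lower and 0 higher, 6 other repair genes lower, and 3.26% of named genes lower and 4.25% higher. Over named genes with a mean above the median, 13.3% were lower and 15.1% higher, and over comparable genes 14.9% and 16.5%. Without chromosomes 14 and 18 the members' median was -0.39, and the medians of base excision repair and mismatch repair changed sign, to 0.19 and 0.35, since their lowest genes lie on chromosome 14. Subtracting the chromosome median of named genes gave -1.36 for the chromosome 14 members. Subtracting that of comparable genes gave 1 member at least 2-fold higher (XRCC3, which was not so before) and none of MSH6, ERCC1 and ERCC3, gave medians of -0.52 for recombination, -0.71 for Fanconi anaemia, -0.51 for signalling, -0.14 for mismatch repair, 0.52 for nucleotide excision repair and -0.56 for end joining, and gave -0.36 for the chromosome 14 members.

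No paired analysis was possible because each line has 1 array. No array was left out, for the same reason. Differences between the lines cannot be told apart from differences between these cultures or arrays.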

Other observations

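ATM, ATR and PRKDC belong to the family of kinases related to phosphatidylinositol 3-kinase, and all 3 were lower by at least 2-fold in resistant cells. The other members of the family were looked up after these values had been seen. SMG1, which acts in nonsense-mediated decay, stood at 13.74 in parental and 12.64 in resistant cells, a difference of -1.10. MTOR, a regulator of growth, stood at 10.61 and 9.89, a difference of -0.72. TRRAP, a catalytically inactive member and a scaffold of acetyltransferase complexes, stood at 11.14 and 10.49, a difference of -0.65. The first 3 prompted the look-up, and of the 3 genes added SMG1 alone passed the 2-fold threshold. Of comparable genes, 49.8% were below zero and 14.9% at least 2-fold lower. The 6 genes lie on 6 different chromosomes (11, 3, 8, 16, 1 and 7), with comparable genes at medians of 0.08, 0.21, -0.22, -0.36, -0.05 and 0.15. Closer by, the nearest comparable genes had medians of 0.85 for ATM, -0.60 for ATR and -1.21 for PRKDC. Whether protein levels or kinase activity differ was not measured.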
